A study of Mus musculus with 3 samples.

Results

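A group of 9 genes that encode transcription factors of the vascular endothelium were followed in retinal endothelial cells (ECs): Sox17, Sox18 and Sox7 of the SoxF group, Erg, Fli1 and Ets1 of the Ets family, the forkhead genes Foxf2 and Foxq1, and Tal1 of the basic helix-loop-helix family. The members were taken by symbol from the gene table, and all 9 were found among its 33696 genes. They were measured in 3548 ECs of 30172 cells that passed the filters, and the 26624 other cells served as background. There were 3 single-cell RNA libraries of mouse retinas at postnatal day 6, enriched with magnetic beads for cells that carry CD31 or CD11b, with 1 library per genotype. The WT library came from wild-type mice, the Tspan12 KO library from mice that lack Tspan12 in every cell, and the Ctnnb1 cKO library from Ctnnb1 flox/flox mice with Pdgfb-iCreER, in which tamoxifen given daily in the first days after birth deletes Ctnnb1 in ECs. All mice had the C57BL/6 background, each library pooled the retinas of several pups of 1 genotype, and the WT pups were not littermates of the knockout pups. No separate control library for Cre or tamoxifen was used here, so the WT library differs from the Ctnnb1 cKO library in Cre as well as in Ctnnb1. Whether the WT pups also received tamoxifen is not stated.

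Tspan12 is a tetraspanin that strengthens Norrin signaling through the receptor Frizzled4, and β-catenin, the product of Ctnnb1, carries the signal to the nucleus of retinal ECs, where it is needed for vessel growth and for the blood-retina barrier. SoxF factors act redundantly in vessel growth, and Sox17 is best known from arteries. Erg, Fli1 and Ets1 bind a GGAA core in many endothelial enhancers, while Fli1, Ets1 and Tal1 also serve blood cells. Foxf2 and Foxq1 mark the endothelium of the brain and retina. Tal1 binds E-boxes (CANNTG) together with E proteins, Lmo2 and Gata factors.

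In the WT, Tspan12 KO and Ctnnb1 cKO libraries 538, 293 and 2717 cells were ECs, with 16091322, 6427378 and 12893877 UMIs in all (unique molecular identifiers, 1 for each transcript captured). Values below follow the order WT, Tspan12 KO, Ctnnb1 cKO where no library is named. All 10 EC markers were detected in each, at a summed level of 9177, 8460 and 7696 CPM (UMIs summed over the cells and scaled to a total of 1000000). Depth differed, with medians of 15785, 14410 and 3347 UMIs per EC in the same order. Markers of other cells moved with the libraries. The 8 microglia markers summed to 143, 106 and 616 CPM in ECs, the 8 rod markers to 119, 232 and 107 CPM and the 7 erythrocyte markers to 159, 3105 and 248 CPM, and their part in the results was not tested. Between 21 and 37 cell barcodes were shared by any 2 libraries, at most 0.393% of a library. In ECs Tspan12 was at 95.9, 84.2 and 40.2 CPM and Ctnnb1 at 523, 616 and 443 CPM, but 3' reads outside a deleted part would still be counted, so these levels do not check the labels. With 1 library per genotype, genotype and library cannot be told apart in any comparison. No p-value is therefore given, and the 95% intervals cover counting error only.

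Among the members, 3 have an entry in the RefSeq promoter table (GRCm38.p6), and 1 start of each is shown because the Ets family, to which 3 members belong, is known for binding at vascular genes. Each line gives the 250 bases upstream of an annotated start, 5′ to 3′ on the gene's strand, with the letters GGAAG or their reverse complement CTTCC in capitals.
Erg, chr16:95459349-95459598, minus strand: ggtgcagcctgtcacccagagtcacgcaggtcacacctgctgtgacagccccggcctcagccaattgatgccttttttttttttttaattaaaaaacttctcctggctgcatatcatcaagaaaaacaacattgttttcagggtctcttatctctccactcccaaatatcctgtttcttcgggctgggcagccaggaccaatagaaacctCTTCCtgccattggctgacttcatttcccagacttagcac
Foxf2, chr13:31625566-31625815, plus strand: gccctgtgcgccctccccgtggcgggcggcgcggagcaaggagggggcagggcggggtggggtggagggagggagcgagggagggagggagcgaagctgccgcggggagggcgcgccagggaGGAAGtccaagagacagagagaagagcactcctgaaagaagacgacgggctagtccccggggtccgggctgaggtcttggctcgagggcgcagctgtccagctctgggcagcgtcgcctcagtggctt
Tal1, chr4:115057561-115057810, plus strand: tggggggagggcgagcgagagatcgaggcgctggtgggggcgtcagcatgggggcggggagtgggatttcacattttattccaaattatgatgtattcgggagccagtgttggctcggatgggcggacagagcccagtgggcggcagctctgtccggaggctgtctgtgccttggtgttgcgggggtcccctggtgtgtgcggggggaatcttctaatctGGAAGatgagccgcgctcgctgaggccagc
These 3 windows were picked for holding GGAAG. Of the 6 windows listed for these genes 4 hold it on either strand, and 64.1% of the 32536 distinct windows of the table do, so the match is common. Other motifs were also searched on both strands. A core bound by Sox factors, spelled ACAAT, is present once in the Erg window and in neither of the other two (27.4% of all windows hold it). The E-box is present at 2 sites of the Erg window and 1 of the Foxf2 window, and in 66.2% of all windows. A Gata motif, spelled AGATAA, is present once in the Erg window and in 9.97% of all windows. A core of TCF/LEF factors, the partners of β-catenin, is spelled TTTGA and present in 38.4% of all windows. It is in none of the windows shown, although 1 further Erg window and 1 further Tal1 window hold it. In the RefSeq gene order, Foxf2 and Foxq1 are neighbours beside Foxc1, Fli1 and Ets1 are neighbours, Erg lies beside Ets2, and no member overlaps another protein-coding gene.

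The first question was where the members are found among retinal cells. All 9 were higher in ECs than in the other cells of each library. In WT the log2 ratio of ECs to other cells ran from 4.004 (3.77 to 4.24) for Tal1 to 6.05 (5.85 to 6.26) for Sox18, and only 0.13% of 11510 genes had a larger ratio than Sox18. In the Tspan12 KO library the ratios ran from 4.68 for Tal1 to 6.59 for Sox18. In the Ctnnb1 cKO library they were lower, from 0.65 (0.49 to 0.82) for Tal1 and 2.12 (2.07 to 2.18) for Fli1 to 4.44 (4.27 to 4.62) for Sox18. Microglia made up 2126 of 5734 other cells there and 286 of 8451 in WT, so the other cells were not the same mixture.

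**Figure D1:**
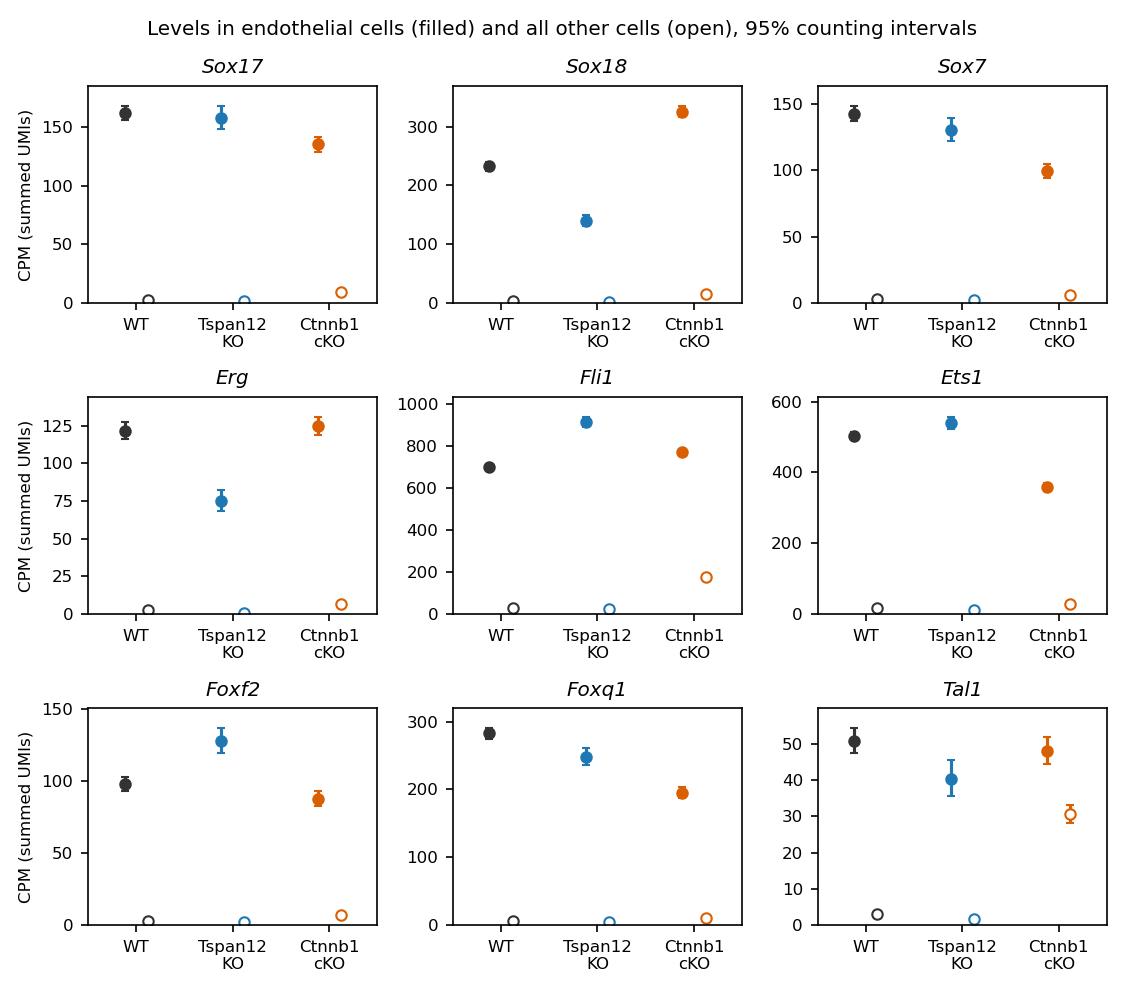
Level of each member in ECs (filled points) and in all other cells (open points) of the 3 libraries, in CPM of summed UMIs on linear axes from 0, with 95% Poisson intervals. Every filled point lies above the open point of its library, and the gap is smallest for Tal1 in the Ctnnb1 cKO library (48.1 against 30.6 CPM).

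Cells can also hold free RNA of other cells, so each level was set against the EC level of the same gene and library. In rods the 9 members stood at 1.02 to 1.87% of their EC level in the WT library, at 0.36 to 0.836% in the Tspan12 KO library and at 2.59 to 5.85% in the Ctnnb1 cKO library. The 10 EC markers gave 1.68%, 1.05% and 5.55% in the same rods. These values lay within the range of the members in WT and Ctnnb1 cKO and above it in Tspan12 KO. Amacrine cells gave similar values, with medians over the members of 1.08%, 0.562% and 3.58%. Whether levels of this size come from free RNA was not tested.

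Microglia divided the members. Sox17, Sox18, Sox7, Erg, Foxf2 and Foxq1 were at most 2.53% of the EC level in WT microglia, 1.08% in those of Tspan12 KO and 7.81% in those of Ctnnb1 cKO, close to the values in rods. Fli1 was at 340, 392 and 346 CPM in microglia of the 3 libraries, or 48.8%, 42.8% and 44.98% of its EC level. Tal1 was at 45.5, 38.4 and 68.8 CPM, or 89.3%, 95.04% and 143% of its EC level. Ets1 was lower, at 57.0, 53.9 and 22.6 CPM, or between 6.29 and 11.3%. Fli1 and Tal1 were thus shared by ECs and microglia, and the Tal1 intervals of both cell types overlapped in WT (47.5 to 54.5 CPM in ECs and 37.8 to 54.3 CPM in microglia).

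In the other immune cells the Ets genes differed from each other. Neutrophils held Ets1 at 201 CPM in WT and 154 CPM in Ctnnb1 cKO (39.97% and 42.9% of the EC level), and Fli1 at 256 and 205 CPM, from 23 and 105 cells. Macrophages or monocytes held Fli1 at 576 CPM (Tspan12 KO) and 404 CPM (Ctnnb1 cKO), and Tal1 at 51.1 and 41.2 CPM, while Ets1 was at 29.2 and 19.0 CPM, from 21 and 298 cells. Erg was represented by few UMIs in these cells and did not exceed 9.71% of its EC level. Of the 3 Ets genes, Erg was the one that stayed with the ECs.

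**Figure D2:**
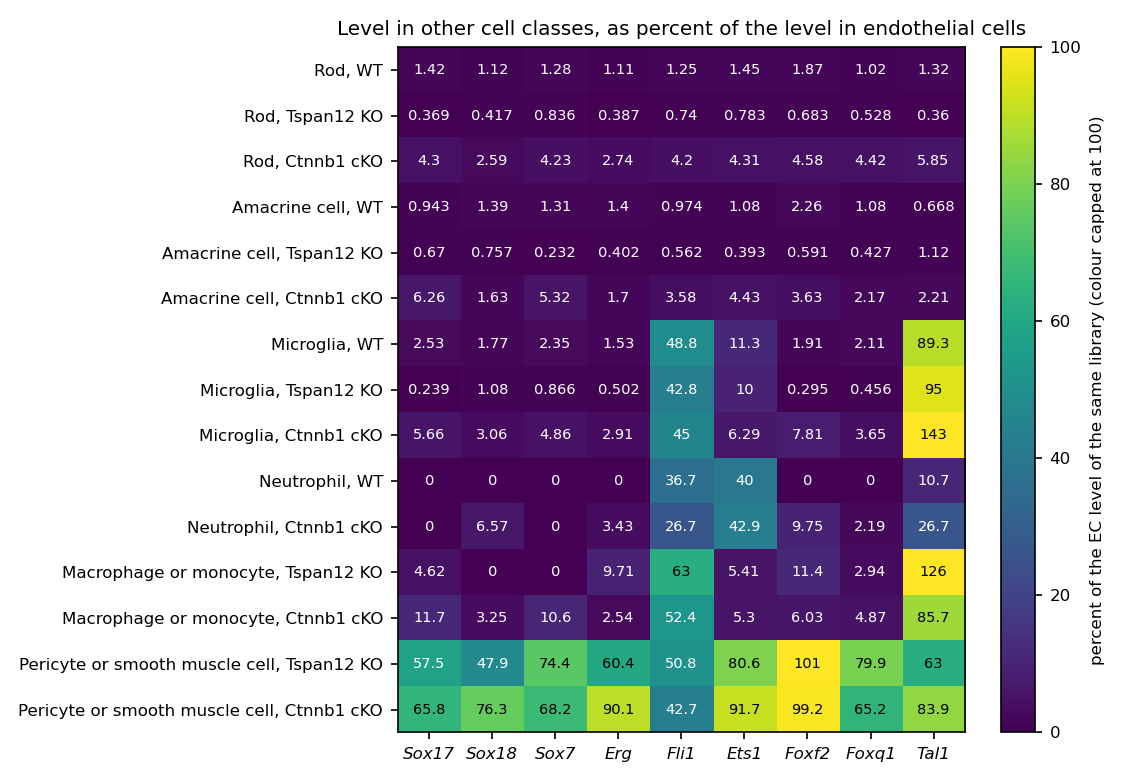
Level of each member (columns) in other cell classes (rows, with the library), printed in each cell as a percent of the level in ECs of the same library, with colour capped at 100%. Rods and amacrine cells lie between 0.232 and 6.26%, whereas Fli1 and Tal1 stand out in microglia and in macrophages or monocytes, and Fli1 and Ets1 in neutrophils.

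Cells named as pericytes or smooth muscle cells carried all 9 members, at 47.9 to 101% of the EC level in the 62 Tspan12 KO cells and 42.7 to 99.2% in the 88 Ctnnb1 cKO cells. However, the 10 EC markers reached 62.6% and 65.4% in the same cells, so EC RNA was present in them. In the 22 Ctnnb1 cKO cells of this class with at most 1 EC marker detected, Cldn5 and Cdh5 had 0 UMIs of 39926, which allows up to 75.1 CPM. In these cells Ets1 had 14 UMIs, or 351 CPM (192 to 588), Foxq1 had 5 and Foxf2 had 4 UMIs, Sox7 and Fli1 had 1 each, and Sox17, Sox18, Erg and Tal1 had 0. Ets1 thus had the most UMIs of the 9 in these cells, which were selected for low EC markers and still held 2 UMIs of Pecam1. Its interval held the level of the ECs of that library (359 CPM). Foxf2, which is also known from brain pericytes, was the highest of the 9 over the whole class, at 101% and 99.2% of its EC level. It was too sparse in the 22 cells to be placed.

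At a common depth, the share of ECs with a UMI of each member was compared. For this, 2000 UMIs were drawn at random from each cell, which left out 18 WT, 31 Tspan12 KO and 827 Ctnnb1 cKO ECs. Fli1 was detected in 66.9% (62.7 to 71.0%), 73.3% (67.5 to 78.5%) and 71.0% (68.8 to 73.0%) of ECs, while rods gave 2.19%, 1.44% and 5.204%. Tal1 was detected in 11.0%, 9.92% and 9.10% of ECs and in at most 0.563% of rods. Sox18 was found in 35.4% (31.3 to 39.7%), 24.8% (19.7 to 30.5%) and 43.0% (40.8 to 45.3%), and these intervals were separate. Ets1 was found in 64.4% (60.1 to 68.5%), 64.1% (58.0 to 69.9%) and 48.9% (46.7 to 51.2%), and only the Ctnnb1 cKO share stood apart. For Erg, at 18.3%, 14.9% and 19.3%, the intervals overlapped. Without thinning, the shares for Sox18 were 85.5%, 71.0% and 57.5%, an order that follows depth.

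Detection was also counted per family. At 2000 UMIs at least 1 SoxF gene was detected in 61.5%, 58.0% and 61.6% of ECs, and all 3 in 2.5%, 2.67% and 2.33%. At least 1 of Erg, Fli1 and Ets1 was detected in 89.0%, 88.9% and 86.6%. No member was detected in 2.31%, 4.20% and 3.12% of ECs, and the median EC held 3 of the 9 in every library.

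Next, each knockout library was set against WT over all ECs, member by member. Another choice of ECs was a gate on markers. It asked for at least 4 of the 10 EC markers, at most 1 of the 8 microglia markers and at most 2 of the 8 rod markers. The gate turned several directions, and its values stand beside those and beside some others that it moved. The SoxF genes went different ways. Sox17 (ENSMUSG00000025902) was at 162 CPM (156 to 168), 158 CPM (148 to 168) and 135 CPM (129 to 142). The WT and Tspan12 KO intervals overlapped, with a log2 ratio of −0.04 (−0.14 to 0.07), but 0.60 with the gate. Ctnnb1 cKO was lower, at −0.26 (−0.35 to −0.17), but at 0.43 with the gate.

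Sox18 (ENSMUSG00000046470) was at 232 CPM (225 to 240), 140 CPM (131 to 149) and 325 CPM (316 to 335). The Tspan12 KO library was therefore the lowest and the Ctnnb1 cKO library the highest. The log2 ratios to WT were −0.73 (−0.84 to −0.63) and 0.49 (0.42 to 0.55), and Ctnnb1 cKO exceeded Tspan12 KO by 1.22 (1.12 to 1.33) on the log2 scale. Sox7 (ENSMUSG00000063060) was at 143, 131 and 99.6 CPM. Both knockout libraries were lower, Tspan12 KO at −0.13 (−0.25 to −0.02) and Ctnnb1 cKO at −0.52 (−0.62 to −0.42) on the log2 scale. With the gate both turned, to 0.62 and 0.32, and as a mean over cells Tspan12 KO was at 0.0432.

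Summed over the 3 SoxF genes, the levels were 537 CPM (526 to 549), 428 CPM (412 to 444) and 560 CPM (547 to 573). The make-up of this sum shifted. Sox18 gave 43.2%, 32.6% and 58.1% of the SoxF UMIs, and Sox7 gave 26.6%, 30.5% and 17.8%.

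Of the Ets genes, Erg (ENSMUSG00000040732) was at 122 CPM (116 to 127), 75.1 CPM (68.6 to 82.2) and 125 CPM (119 to 131). The Tspan12 KO library was the low one, with a log2 ratio of −0.70 (−0.84 to −0.55) against 0.04 (−0.06 to 0.13) for Ctnnb1 cKO. With the gate these ratios were −0.09 and 0.97. Fli1 (ENSMUSG00000016087) was at 698, 915 and 770 CPM, higher than WT by 0.39 (0.35 to 0.44) and 0.14 (0.10 to 0.18) on the log2 scale, although the Ctnnb1 cKO value was −0.0264 with equal weights for 3 EC subtypes. Ets1 (ENSMUSG00000032035) was at 504, 539 and 359 CPM, close to WT in Tspan12 KO, at 0.10 (0.04 to 0.15), and lower in Ctnnb1 cKO, at −0.49 (−0.54 to −0.44). With the gate Ets1 was higher in Tspan12 KO, at 0.57, and close to WT in Ctnnb1 cKO, at −0.03. The 3 Ets genes together summed to 1323, 1529 and 1254 CPM, and the share of Erg among them was 9.199%, 4.91% and 9.95%. Microglia markers stood in ECs at 0.633%, 0.51% and 3.31% of their level in microglia, and Fli1 in microglia was below its EC level in each library.

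The neighbouring forkhead genes did not keep step. Foxf2 (ENSMUSG00000038402) was at 97.8 CPM (93.0 to 103), 128 CPM (119 to 137) and 87.7 CPM (82.7 to 93.0). It was higher in Tspan12 KO, at 0.39 (0.26 to 0.51), and slightly lower in Ctnnb1 cKO, at −0.16 (−0.27 to −0.05), but at 0.18 with the gate. Foxq1 (ENSMUSG00000038415) was at 283, 248 and 195 CPM, lower than WT in both knockout libraries, at −0.19 (−0.27 to −0.11) and −0.53 (−0.61 to −0.46) on the log2 scale, and higher with the gate, at 0.33 and 0.13. Tal1 (ENSMUSG00000028717) was at 50.9, 40.5 and 48.1 CPM. It was lower in Tspan12 KO, at −0.33 (−0.54 to −0.13), but at 0.25 with the gate. A difference was not detectable at this depth in Ctnnb1 cKO, at −0.08 (−0.23 to 0.07), although the gate gave 0.62.

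**Figure D3:**
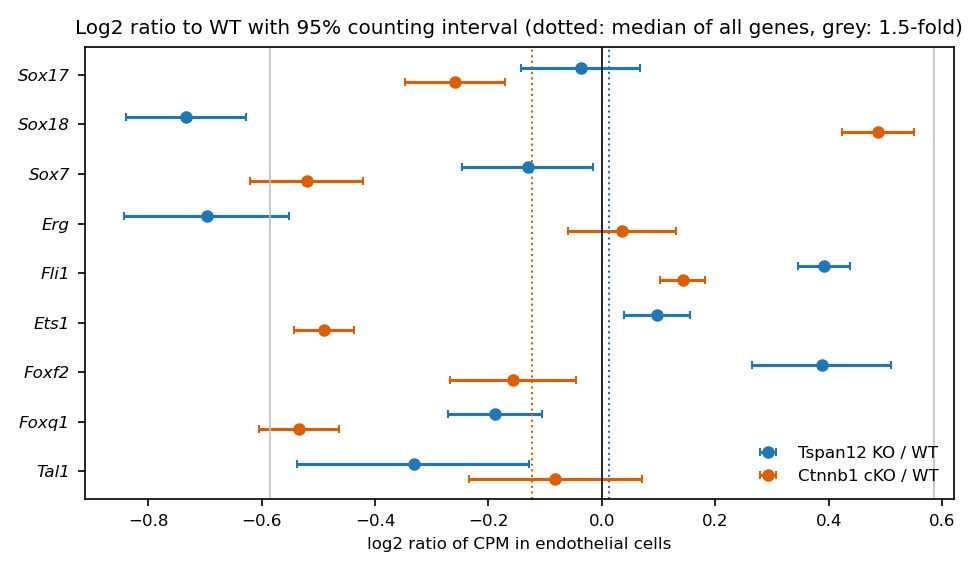
Log2 ratio of CPM in ECs of each knockout library to WT ECs for the 9 members, with exact 95% counting intervals, grey lines at 1.5-fold and dotted lines at the median of all genes. Sox18 and Erg in Tspan12 KO lie beyond the 1.5-fold line, and no member of Ctnnb1 cKO does.

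The members were then read against all genes counted in ECs. Over the 13233 genes with at least 50 UMIs in ECs, 10.2% were at least 1.5-fold higher and 11.8% at least 1.5-fold lower in Tspan12 KO than in WT. Of the 9 members, 0 were higher and 2, Sox18 and Erg, were lower by this rule. In Ctnnb1 cKO 17% of genes were higher and 26.2% lower, and of the members 0 and 0. The median log2 ratio of the members was −0.13 in Tspan12 KO, where that of all genes was 0.01, and −0.16 in Ctnnb1 cKO, where that of all genes was −0.12. Both comparisons share the WT library. With TMM scaling, which moved the median of all genes in Ctnnb1 cKO to 0.02, 1 member, Sox18, was at least 1.5-fold higher there. With the gate on EC, microglia and rod markers both medians of the members lay above 0 (0.57 and 0.43), beside −0.06 and −0.25 for all genes. Sox18, Erg, Fli1 and Ets1 kept their signs in both comparisons, although Erg in Tspan12 KO was then at −0.09 and Ets1 in Ctnnb1 cKO at −0.03. This gate lowered the median depth of the WT ECs to 7402.5 UMIs.

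ECs of different vessel types entered the libraries in different numbers, so the members were compared within EC subtypes. Over all libraries together the ECs fell into 10 subclusters that mostly held 1 library or the other, and subtypes were therefore named within each library, a choice made after the data were seen. The 9 members were left out of the clustering. Arterial ECs numbered 43, 58 and 363, capillary ECs 179, 62 and 637, and proliferative ECs 145, 76 and 340, while 152, 97 and 1377 were in unnamed clusters. Capillary ECs were named from barrier genes such as Slc38a5 and Tfrc, which themselves differed between the libraries, so these cells may not be the same vessels in each.

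Of the 3 subtypes, arterial ECs held the most Sox17 and Sox18 in each library. Sox7 was highest there in WT and Ctnnb1 cKO, while in Tspan12 KO it was at 154 CPM (130 to 181) in arterial and 174 CPM (155 to 194) in capillary ECs, with overlapping intervals. The arterial ECs were not equally distinct. In WT 7 of 8 arterial markers stood out, at a mean log2 fold of 3.48 over the other ECs, but in Tspan12 KO 5 of 8 did, at 1.51, so arterial ECs of these libraries may not be the same cells. Sox17 was at 730 CPM (675 to 788) in WT arterial ECs and 128 CPM in the other WT ECs, a log2 ratio of 2.505 (2.38 to 2.63). In Tspan12 KO it was at 367 against 122 CPM, or 1.59 (1.39 to 1.78), and in Ctnnb1 cKO at 476 against 105 CPM, or 2.18 (2.03 to 2.33). Sox18 was also higher in arterial ECs, by 1.12, 0.44 and 0.51 on the log2 scale, and Sox7 by 1.09, 0.28 and 0.47. The excess of each SoxF gene was largest in WT, where the arterial markers also stood out most. Erg showed no arterial excess, with log2 ratios of 0.05, −0.06 and −0.01 whose intervals all included 0. Ets1 was lower in arterial ECs in WT, at −0.60 (−0.77 to −0.44), and in Ctnnb1 cKO, at −0.41 (−0.59 to −0.24), but not in Tspan12 KO, at 0.05 (−0.09 to 0.18).

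In proliferative ECs most members made up a smaller share of the UMIs. These cells were deeper, with medians of 35860, 33961 and 5563.5 UMIs, against 15785, 14410 and 3347 over all ECs. Transcripts per cell were not compared, so lower here means a lower share. Erg was lower there than in the other ECs, at −0.81, −0.81 and −0.85 on the log2 scale. Sox17, at −0.95, −1.47 and −0.88, and Sox7, at −0.99, −0.73 and −0.59, were also lower in each library. Foxq1 was at −0.74, −1.68 and −0.25, and Tal1 at −0.47, −0.65 and −0.53. Foxf2 was the exception, at −0.11 (−0.26 to 0.03) in WT and 0.07 (−0.14 to 0.28) in Ctnnb1 cKO, with −0.56 (−0.77 to −0.35) in Tspan12 KO alone. Sox18 was not lower in proliferative ECs of Tspan12 KO, at 0.11 (−0.09 to 0.30).

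**Figure D4:**
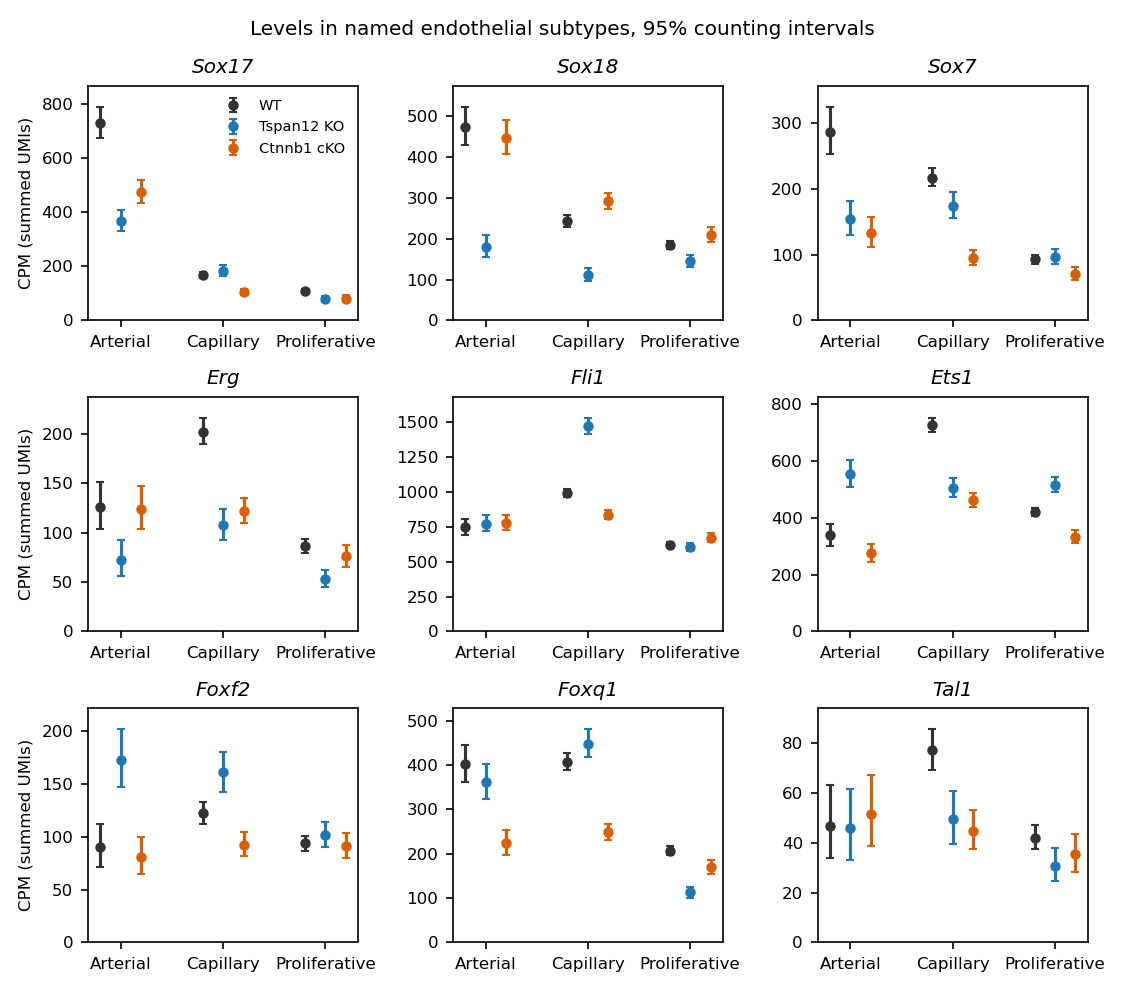
Level of each member in arterial, capillary and proliferative ECs of the 3 libraries, in CPM on linear axes from 0 with 95% Poisson intervals. Sox17 is highest in arterial ECs (730 CPM in WT), Erg and Tal1 peak in WT capillary ECs (202 and 77.1 CPM), and Fli1 peaks in Tspan12 KO capillary ECs (1469 CPM).

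Within subtypes, the lower Sox18 and Erg of the Tspan12 KO library were present in all 3. Sox18 had log2 ratios to WT of −1.40 (−1.66 to −1.14) in arterial, −1.13 (−1.36 to −0.91) in capillary and −0.35 (−0.51 to −0.19) in proliferative ECs. Erg had −0.80 (−1.25 to −0.35), −0.91 (−1.14 to −0.69) and −0.69 (−0.95 to −0.44). In Ctnnb1 cKO the higher Sox18 was small within subtypes, at −0.08 (−0.28 to 0.11), 0.26 (0.13 to 0.39) and 0.18 (0.03 to 0.33). Erg there was lower in capillary ECs, at −0.73 (−0.91 to −0.55), a difference that did not appear over all ECs.

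Sox17 differed in arterial ECs more than over all ECs. In arterial ECs it was lower than in WT, at −0.99 (−1.18 to −0.80) for Tspan12 KO and −0.62 (−0.79 to −0.44) for Ctnnb1 cKO on the log2 scale. In Tspan12 KO arterial ECs made up 58 of 293 ECs, against 43 of 538 in WT, and they were the less distinct arterial cluster described above. Subcluster 2 of all libraries together was named capillary and held 314 WT and 79 Tspan12 KO cells. Sox17 there was higher in Tspan12 KO, at 293 CPM (264 to 324) against 233 CPM (222 to 244) in WT. No joint subcluster named arterial held WT cells, and subcluster 5, named arterial, held 4 Tspan12 KO cells. Subcluster 2 may therefore mix arterial and capillary ECs in unequal shares, so this comparison cannot be read for either subtype alone. Sox7 in Ctnnb1 cKO was lower in each subtype, at −1.10, −1.19 and −0.39, and Foxq1 at −0.84, −0.71 and −0.29. In Tspan12 KO, Foxf2 was higher in arterial ECs, at 0.94 (0.54 to 1.34), and in capillary ECs, at 0.40 (0.19 to 0.61), but not detectably in proliferative ECs, at 0.12 (−0.08 to 0.32). The median of the members was −0.16, −0.32 and −0.35 in arterial, capillary and proliferative ECs of Tspan12 KO, beside −0.06, 0.05 and −0.06 for all genes. In Ctnnb1 cKO it was −0.16, −0.69 and −0.25, beside −0.11, −0.18 and −0.13.

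The Ctnnb1 cKO library held enough ECs to follow the members over 6 of the 10 subclusters. Foxq1 varied most, by 9.84-fold, from 27.3 to 269 CPM, and Sox17 by 6.05-fold, from 80.3 to 486 CPM. Ets1 varied least, by 1.61-fold. Foxq1 was low in subcluster 3 (342 cells, led by Mgp, Eln and Fbln2, matrix genes of large vessels) at 44.8 CPM, and in subcluster 7 (222 cells, led by Rasd1, Gpihbp1 and Depp1) at 27.3 CPM. Against the other ECs of the library these were log2 ratios of −2.26 (−2.64 to −1.91) and −2.94 (−3.53 to −2.41). The same subclusters held more Sox18, at 515 and 442 CPM, and more Erg, at 177 and 209 CPM. Sox17 peaked at 486 CPM in subcluster 5, led by the arterial genes Dkk2, Bmx and Gja5, where Foxq1 was at 233 CPM. Foxq1 and Sox17 were thus not high in the same large-vessel cells throughout, since subcluster 3 was also named arterial and held Sox17 at 188 CPM.

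**Figure D5:**
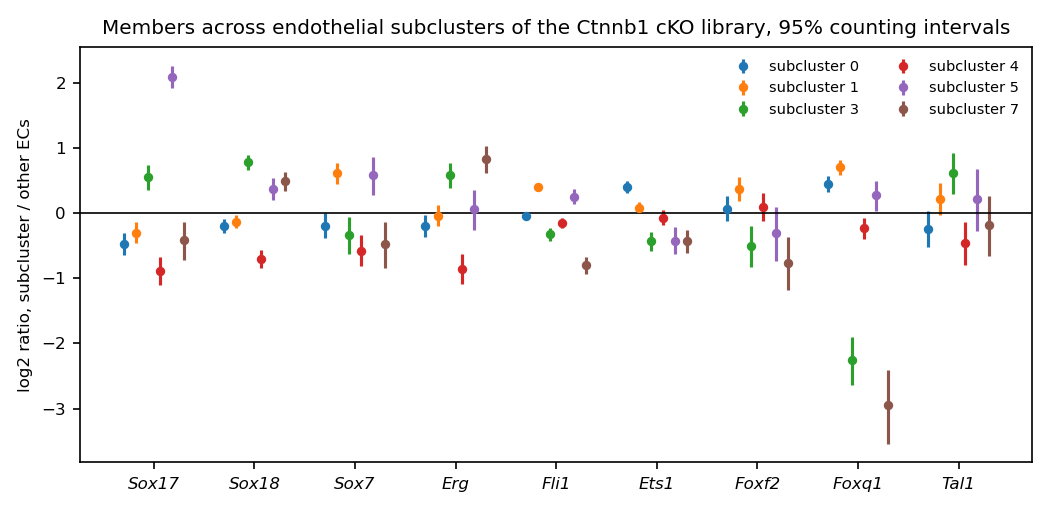
Log2 ratio of each member in 6 EC subclusters of the Ctnnb1 cKO library to the other ECs of that library, with exact 95% counting intervals. Foxq1 is at −2.26 and −2.94 in subclusters 3 and 7, Sox17 reaches 2.09 in subcluster 5, and the other members stay within −0.88 and 0.83.

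Across cell types, the genes with patterns most like the members were sought over 28 combinations of class and library from 13 classes. These points share libraries and depth, and the correlation of log2 levels is given as a description. Foxq1 was the gene most like Sox17, and Sox17 the gene most like Foxq1, with a Pearson r of 0.982. Vwf, the von Willebrand factor gene, was most like Sox18 (0.978), Pcdh12 most like Erg (0.984), Anxa3 most like Fli1 (0.979) and Pecam1, which encodes CD31, most like Ets1 (0.963). Sox7 was most like Unc45b and Myct1 (0.983 each), Foxf2 most like Myct1 (0.988), followed by the basement membrane gene Nid1 (0.985) and the angiopoietin receptor gene Tek (0.982). Tal1 was most like Tgfbr2 (0.969), a receptor of TGF-β that ECs share with microglia.

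Finally, relatives, partners and described targets of the members were examined in ECs by lists. Of all genes, 10.2% were higher and 11.8% lower by 1.5-fold in Tspan12 KO, and 17% and 26.2% in Ctnnb1 cKO. These shares belong beside every list count below, and no list was tested against them. Of 16 other Sox genes, 8 had at least 50 UMIs, with 1 higher and 1 lower by 1.5-fold in Tspan12 KO and a median log2 ratio of 0.15. In Ctnnb1 cKO 1 was higher and 2 lower, with a median of −0.16. Sox13 was higher in both, at 48.7, 79.97 and 75.1 CPM, and Sox6 was lower in both, at 11.4, 4.82 and 3.102 CPM. Of 23 other Ets genes, 15 were counted, with medians of 0.05 and 0.35. Elf1 was lower, with log2 ratios of −0.87 and −0.43, and Spi1, the myeloid factor PU.1, was at 1.80, 0.934 and 10.2 CPM, in step with the microglia markers. Of 20 other forkhead genes, 15 were counted, with medians of 0.09 and −0.11. Foxc1, the neighbour of Foxf2, was at 71.0, 89.6 and 37.6 CPM, and its log2 ratios to WT were 0.34 (0.19 to 0.48) and −0.92 (−1.07 to −0.76). Foxf2 was on the same side of WT in the main analysis. In Ctnnb1 cKO, however, Foxf2 was at −0.016 with TMM scaling and 0.18 with the gate.

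Of 10 Tal1 partners, 9 were counted, with 1 higher and 2 lower in Tspan12 KO and 2 and 2 in Ctnnb1 cKO, and medians of 0.05 and 0.04. Lmo2, the adaptor that holds Tal1 complexes together, was at 454, 288 and 170 CPM, and its log2 ratios were −0.66 (−0.73 to −0.58) and −1.42 (−1.49 to −1.35). Cbfa2t3, a corepressor of Tal1 complexes, was at 56.2, 108 and 142 CPM, with 0.94 (0.79 to 1.08) and 1.34 (1.22 to 1.45). Tcf12, an E protein, was at −0.17 and −0.90. Runx1, also a microglial gene, was at 1.62, 0.934 and 11.2 CPM, again in step with the microglia markers.

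Of 19 other endothelial transcription factors, 18 were counted, with 0 higher and 2 lower in Tspan12 KO and 4 and 4 in Ctnnb1 cKO, and medians of 0.09 and −0.24. Nr2f2, the venous factor COUP-TFII, was at −0.21 and −1.33, and Mef2a at −0.46 and −1.01. All 22 described targets of SoxF or Ets factors were counted, with 4 higher and 1 lower in Tspan12 KO, 3 and 3 in Ctnnb1 cKO, and medians of 0.12 and 0.21. They did not move as 1 group. Cldn5, the tight junction gene, was at −0.79 and −1.13, whereas Mmrn2 was at 0.86 and 1.25 and Eng, an endothelial TGF-β coreceptor, at 0.66 and 0.99. Of the 14 blood-retina barrier genes, which served for comparison, 1 was higher and 6 lower in Tspan12 KO and 3 and 8 in Ctnnb1 cKO, with medians of −0.34 and −0.88, further from 0 than those of the members.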

How the data were processed

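Cells of P6 mouse retinas were profiled in 3 droplet libraries (10x Genomics, 3' chemistry), 1 per genotype. The deposited matrices hold whole-number UMI counts per gene and barcode, made by the authors with Cell Ranger (version 8.0.1 in the matrix headers, another version in the methods). The genome build differs between the labels (GRCm39) and the methods, so no coordinates are given for the counts. RefSeq promoters are on GRCm38.p6. The libraries held 92684519 (WT), 137114957 (Tspan12 KO) and 37008362 (Ctnnb1 cKO) UMIs in 9951, 14426 and 9151 barcodes.

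Filters required 250 genes and 500 UMIs or more per cell, with mitochondrial UMIs at 15% or less. The top Scrublet scores (scanpy version 1.11.5) were removed as doublets at 0.8% per 1000 cells (760, 1656 and 665 cells). The 2000 most variable genes without the 9 members, 30 principal components, 20 neighbours and Leiden clustering (leidenalg version 0.10.2, resolution 1) gave 32 clusters, named from markers of 19 classes with at least 3 markers enriched. A class name means cells that resemble that class. No batch integration was applied. ECs were clustered again, over all libraries and within each. UMIs were summed per class and library and scaled to CPM. Values are given for at least 20 cells. Intervals at 95% are exact Poisson (CPM), exact conditional binomial (log2 ratios) and exact Clopper-Pearson (shares). A count of 0 was given a limit of 3 counts. TMM factors came from edgeR version 4.0.16, which ran no test. The interval and thinning steps were tested on simulated data.

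Named genes were the 9 members, up to 4 genes per list with the largest mean absolute log2 ratio among those with at least 50 UMIs, and the 3 genes most alike per member. A gene that this rule also names is not reported here. Members, lists and markers were chosen with earlier results of these data known. Protein sequences, and promoters of the other 6 members, were not used here.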

Additional observations from a re-analysis of the deposited data

Results flagged for a closer look

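In 3 cases a member stood on opposite sides of WT in different EC subtypes of the same library, with each interval excluding 0. The difference between subtypes was not tested, since each rests on 1 library per genotype. Ets1 in Tspan12 KO had a log2 ratio to WT of 0.71 in arterial and 0.30 in proliferative ECs but −0.52 in capillary ECs. In the capillary subcluster of all libraries together it was higher, at 674 CPM in Tspan12 KO and 598 CPM in WT. Foxq1 in Tspan12 KO was at 0.14 (0.02 to 0.26) in capillary ECs and at −0.87 (−1.05 to −0.70) in proliferative ECs. In the same joint subcluster it was lower, at 322 CPM in Tspan12 KO and 385 CPM in WT. However, joint subcluster 9, with 64 Tspan12 KO cells, shared the leading genes Nkd1 and Slco1a4 with the Tspan12 KO capillary ECs. It held Ets1 at 504 CPM and Foxq1 at 450 CPM, beside 506 and 448 CPM in those capillary ECs. The joint capillary subcluster may therefore hold other Tspan12 KO cells, so whether the capillary directions depend on the clustering cannot be told. Joint subcluster 6, named proliferative, held 162 WT and 93 Tspan12 KO cells. Foxq1 was lower there in Tspan12 KO, at 121 against 196 CPM, and Ets1 higher, at 531 against 432 CPM. These were the directions of the proliferative ECs named within each library. Fli1 in Ctnnb1 cKO was at −0.25 in capillary and 0.11 in proliferative ECs.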

How the results depend on the processing

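With 1 library per genotype no replicate could be left out, and no paired analysis was possible because the groups share a single replicate number and no test was run. Across 12 alternatives, 132 of 216 log2 ratios of single members stayed within their counting interval, 75 moved beyond it and 9, whose interval in the main analysis excluded 0, changed sign. Sox18 and Ets1 kept their signs in both comparisons under all of them, although Ets1 came as close to 0 as 0.0298 and −0.0316. The gate on EC, microglia and rod markers, which kept 304, 131 and 1190 ECs, turned the most directions. It also lowered the median depth of the ECs kept to 7402.5, 6097 and 2021 UMIs, and the cause of the shifts was not tested. In Tspan12 KO the gate gave a median of the members of 0.57, beside −0.06 for all genes. With it 4 members were higher and 1 lower by 1.5-fold, and Sox7 turned to 0.62, Foxq1 to 0.33 and Tal1 to 0.25. In Ctnnb1 cKO the gate gave a median of 0.43, beside −0.25 for all genes, with 4 members higher. Sox17 turned to 0.43, Sox7 to 0.32, Foxf2 to 0.18 and Foxq1 to 0.13. The shares of all genes past 1.5-fold are given for the main analysis only, so counts under the alternatives have no such share beside them. As a mean over cells, the Tspan12 KO median, which is the value of Sox7, turned to 0.0432, and the Ctnnb1 cKO median was −0.27 with 1 member lower. Equal weights for the 3 EC subtypes, an alternative added after the data were seen, gave a median of −0.37 in Tspan12 KO, a median of −0.31 in Ctnnb1 cKO with 2 members lower, and turned Fli1 in Ctnnb1 cKO to −0.0264. Without cycling ECs, 1 member was higher in Tspan12 KO. In Ctnnb1 cKO the median was then −0.38, beside −0.14 for all genes, with 4 members lower. Thinning to 2000 UMIs left 1 member lower in Tspan12 KO, and gave a median of −0.34 with 1 lower in Ctnnb1 cKO. TMM scaling, which moved the Ctnnb1 cKO median of all genes from −0.12 to 0.02, gave a median of −0.0158 with 1 member higher. ECs from each library clustered alone gave 1 member higher and 2 lower in Ctnnb1 cKO, and a fold of 2 gave 0 members lower in Tspan12 KO. The other alternatives (no doublet removal, at least 1000 UMIs per cell, members kept among the variable genes, a pseudocount of 5 CPM, and ECs without the subcluster led by rod and haemoglobin genes) kept both medians within the counting interval of the middle member and left the counts as they were.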
